A study of Mus musculus with 12 samples.

Results

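The genes described here are 8 enzymes of methyl-group metabolism in mouse liver: Nnmt, Gnmt, Bhmt, Bhmt2, Mat1a, Ahcy, Shmt1 and Aldh1l1. They were taken by symbol from a table of 22456 genes, and all 8 were found there. They were chosen because their RPKM, a read count scaled to transcript length and to the size of the library, had already been seen to differ among the groups of this study, so those RPKM values are given as a description with no test. Livers came from male BALB/cByJ mice aged 2 to 8 months, from chow-fed wild-type (WT) animals or from littermates without functional lipin 1 (Lpin1-/-, called fatty liver dystrophy or FLD). The fld mutation is carried in the germline by every cell of the animal, so the loss of lipin 1 is not confined to the liver. Mice of the fasted groups had been without food for 16 h, and mice of the refed groups had been fasted for 16 h and then given chow for 5 h. Feeding state and the clock time of collection changed together and cannot be told apart. Each of the 4 groups held 3 mice and gave 3 RNA-seq libraries, 12 in all, and whole liver was sequenced, so fewer cells of a type and less RNA per cell cannot be told apart.

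S-adenosylmethionine is the methyl donor of most methyltransferases. MAT1A, the liver form of methionine adenosyltransferase, makes it from methionine and ATP. GNMT, an abundant liver enzyme, and NNMT use it to methylate glycine and nicotinamide, and the product S-adenosylhomocysteine is split by AHCY into adenosine and homocysteine. BHMT returns homocysteine to methionine with a methyl group from betaine, and BHMT2 does so with S-methylmethionine. SHMT1 moves one-carbon units from serine onto folate in the cytosol, and ALDH1L1 oxidizes 10-formyltetrahydrofolate and releases the unit as carbon dioxide.

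The promoters of Gnmt and of the neighbouring pair Bhmt and Bhmt2 are shown because Gnmt was higher in FLD in both states, whereas the genotypes switched order between states for the pair, as described below. Bhmt and Bhmt2 lie on the minus strand of chromosome 13 and are 17758 bases apart. The sequences come from RefSeq (GRCm38.p6), run 5′ to 3′ on the strand of the gene, and cover 250 bases before and 50 bases after the start site. Capitals mark matches on either strand to AGGTCA (a nuclear receptor half-site), CCAAT (the CCAAT box) or GGGCGG (the GC box).
Gnmt, chr17:46729116-46729415, minus strand: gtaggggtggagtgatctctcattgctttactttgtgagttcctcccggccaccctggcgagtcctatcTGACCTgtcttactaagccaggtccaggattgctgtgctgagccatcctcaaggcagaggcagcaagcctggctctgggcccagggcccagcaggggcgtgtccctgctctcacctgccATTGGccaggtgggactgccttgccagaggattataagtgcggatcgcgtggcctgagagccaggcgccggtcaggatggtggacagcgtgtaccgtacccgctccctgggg
Bhmt, chr13:93637709-93638008, minus strand: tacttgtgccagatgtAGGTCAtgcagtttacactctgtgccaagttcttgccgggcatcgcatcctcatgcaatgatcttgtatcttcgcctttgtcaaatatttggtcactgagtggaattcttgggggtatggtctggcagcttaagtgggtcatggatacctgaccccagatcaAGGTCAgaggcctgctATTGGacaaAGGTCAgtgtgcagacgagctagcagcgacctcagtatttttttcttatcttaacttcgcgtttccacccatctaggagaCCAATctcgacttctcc
Bhmt2, chr13:93674253-93674552, minus strand: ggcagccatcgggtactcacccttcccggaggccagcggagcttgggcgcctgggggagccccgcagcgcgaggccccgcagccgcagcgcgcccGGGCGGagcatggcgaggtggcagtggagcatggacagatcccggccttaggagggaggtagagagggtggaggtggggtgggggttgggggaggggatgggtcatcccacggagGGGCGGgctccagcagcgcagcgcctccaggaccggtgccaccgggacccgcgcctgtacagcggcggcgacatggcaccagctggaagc

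The Bhmt window held 3 half-sites and 2 CCAAT boxes, the Gnmt window 1 of each, and the Bhmt2 window neither but 2 GC boxes. Among 32851 promoters of the same length, 16.3% held the half-site, 37.4% the CCAAT box and 35.7% the GC box. The TATA box motif TATAAA, in 13.6% of promoters, was searched too, as was the E-box motif CACGTG, in 7.15%, and neither matched in the 6 member promoters. Promoters matched for 6 of the 8 members. Those of Nnmt and Mat1a are not shown. A match describes letters in this window and was not tested as a binding site.

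Lpin1, the mutated gene, was listed at 21.96, 0.726 and 1.76 RPKM in the fasted WT libraries and at 2.92, 0.784 and 2.76 RPKM in the refed WT libraries, and at 0.0597 RPKM or less in all 6 FLD libraries. WT Fasted replicate 1 stood apart from its group in Lpin1 and in several members, so differences of the members are also given without it where they moved most. All 5 hepatocyte markers in the table summed to between 31986 and 71253 RPKM per library, and the adipocyte markers to at most 0.321 RPKM. The 7 Kupffer cell and leukocyte markers summed to 2505 RPKM in WT Refed replicate 2 and to 1489 RPKM in FLD Fasted replicate 1, against 61.1 to 568 RPKM in the other 10 libraries. The 5 cholangiocyte markers summed to 451 RPKM in FLD Fasted replicate 1, against 19.2 to 103 RPKM elsewhere. The 7 pericentral hepatocyte markers summed to 7660 to 9269 RPKM in fasted WT and 2319 to 6723 RPKM in fasted FLD livers, which did not overlap, and the 7 periportal markers to 2690 to 7558 and 4792 to 7316 RPKM, which overlapped. In refed livers the periportal markers summed to 1871 to 3222 RPKM in WT and 5236 to 7387 RPKM in FLD, which did not overlap, while the pericentral sums did overlap. The 8 stellate cell markers summed to 96.1 to 245 RPKM in fasted WT and 287 to 416 RPKM in fasted FLD livers, again without overlap. These sums weigh the highest genes most. Of the periportal markers Cps1, Ass1, Hal, Sds and Gls2 were higher in refed FLD without overlap, Pck1 overlapped and Cyp2f2 was lower without overlap. Of the pericentral markers Cyp2e1, Lgr5 and Axin2 were lower in fasted FLD without overlap, and Glul, Oat, Cyp1a2 and Slc1a2 overlapped. Of the stellate markers only Dcn and Des did not overlap between fasted genotypes. The part of these differences in the results below was not tested, except that values without the marker-rich libraries are given.

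Nnmt had the largest difference between genotypes of the 8 genes. The gene (ENSMUSG00000032271.13) lies on the minus strand at chr9:48591877-48605153 (GRCm38). Its level was 104, 62.5 and 21.8 RPKM in fasted WT livers and 750.2, 618 and 703 RPKM in fasted FLD livers. After refeeding it was 69.7, 34.0 and 5.03 RPKM in WT and 655, 855 and 845 RPKM in FLD. Every FLD library was above every WT library in both states, and the lowest fasted FLD value was 5.97 times the highest fasted WT value, with a matching factor of 9.40 in the refed state. The group means were 62.6 ± 40.9 and 690.3 ± 67.0 RPKM (SD, n = 3) when fasted, an 11.02-fold difference, and 36.2 ± 32.4 and 785 ± 112 RPKM (SD, n = 3) when refed, a 21.7-fold difference. On the log2(RPKM + 1) scale the genotype difference was 3.69 ± 0.75 (SE) fasted and 4.99 ± 0.75 refed. Leaving out 1 library moved the fasted value to between 3.08, without WT Fasted replicate 3, and 4.18, without WT Fasted replicate 1, and the refed value to between 3.97, without WT Refed replicate 3, and 5.75, without WT Refed replicate 1. The WT values spread widely in both states, while the fasted and refed FLD values overlapped, with a refeeding difference of 0.18 ± 0.75.

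**Figure D1:**
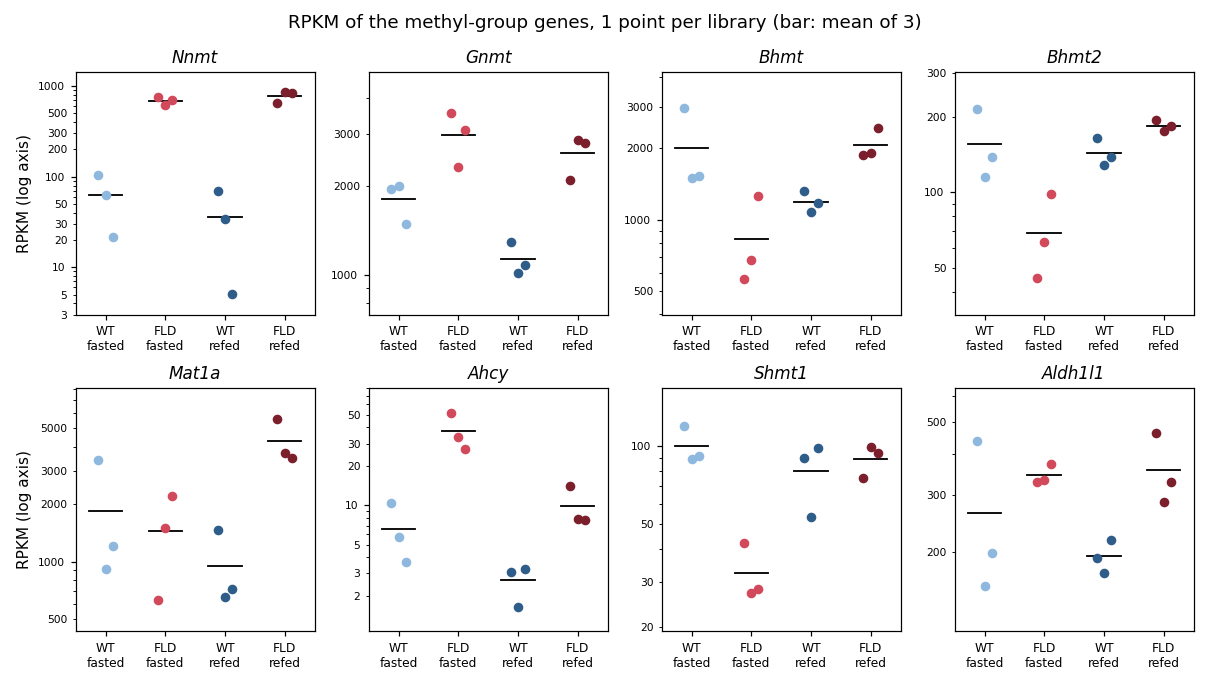
RPKM on log axes in each of the 12 libraries for the 8 genes, with 1 point per library and a bar at each group mean (n = 3). Nnmt sits at 618 to 855 RPKM in all FLD libraries and at 5.03 to 104 RPKM in all WT libraries, and Bhmt is lowest in fasted FLD and highest on average in refed FLD.

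The genes whose profile over the 12 libraries came closest to that of Nnmt were found by the root mean square gap between mean-centred log2(RPKM + 1) values, over 11506 other genes. They were Got1 (gap 0.80), the cytosolic aspartate aminotransferase, Fam107a (0.88), Ctsl (0.95), the lysosomal protease cathepsin L, Lepr (1.03), the leptin receptor, and Mt1 (1.04), a metallothionein. The SD of Nnmt itself over the libraries was 2.48 on this scale. Got1 averaged 239 and 1246 RPKM in fasted WT and FLD livers and 64.4 and 1044 RPKM in refed WT and FLD livers. Lepr averaged 0.403 and 20.8 RPKM fasted and 0.484 and 26.6 RPKM refed. These likenesses describe the same libraries that chose Nnmt.

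Gnmt (ENSMUSG00000002769.9, chr17:46725664-46729168, minus strand) was among the 3 highest members in every group. Fasted WT livers had 1950.0, 1998 and 1492 RPKM and fasted FLD livers 3535, 2332 and 3099 RPKM. Refed WT livers had 1289, 1012 and 1082 RPKM and refed FLD livers 2101, 2876 and 2800.4 RPKM. The genotypes did not overlap in either state, and the means differed 1.65-fold fasted (log2 difference 0.71 ± 0.26, SE) and 2.30-fold refed (1.19 ± 0.26). WT values were lower after refeeding without overlap, with a log2 difference of -0.68 ± 0.26, whereas the fasted and refed FLD values overlapped. The 5 genes nearest in profile to Gnmt were Iqcb1 (gap 0.24), Tmem243 (0.25), Oser1 (0.27), Map1lc3b (0.27) and Mospd1 (0.27), against an SD of Gnmt of 0.60.

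Bhmt and Bhmt2 had the opposite order of genotypes in the fasted and refed states. Bhmt (ENSMUSG00000074768.6, chr13:93616675-93637961) had 2976, 1496 and 1537 RPKM in fasted WT livers and 563, 680.2 and 1257 RPKM in fasted FLD livers. After refeeding it had 1322, 1081 and 1174 RPKM in WT and 1878, 1916 and 2441 RPKM in FLD. All fasted FLD values lay below all fasted WT values, and all refed FLD values lay above all refed WT values. Refeeding also went opposite ways without overlap, with a log2 difference of -0.68 ± 0.35 (SE) in WT and 1.39 ± 0.35 in FLD. Without WT Fasted replicate 1 the WT refeeding difference was -0.35 and the fasted genotype difference -0.95, in place of -1.28. Bhmt shared 22.6% of its 69-base windows with transcripts of other genes, so part of its level is uncertain. Most of these, 21.3% of the windows, occur in Gm5096, which was listed at 5.73 to 32.9 RPKM over the 12 libraries. The part of shared sequence in the Bhmt level was not tested.

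Bhmt2 (ENSMUSG00000042118.7, chr13:93655720-93674302) followed at a lower level. Fasted WT livers had 215, 115 and 138 RPKM and fasted FLD livers 45.5, 63.1 and 98.3 RPKM. Refed WT livers had 165, 128 and 138 RPKM and refed FLD livers 194, 175 and 184 RPKM. The genotype difference was -1.19 ± 0.29 (SE) on the log2 scale when fasted and 0.37 ± 0.29 when refed, and neither state overlapped, although the lowest refed FLD value was only 1.06 times the highest refed WT value. In WT the fasted and refed values overlapped, with a log2 difference of -0.08 ± 0.29 that became 0.18 without WT Fasted replicate 1, where the fasted genotype difference was -0.93.

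Mat1a (ENSMUSG00000037798.7, chr14:41105035-41124412, plus strand) was the highest member in refed FLD livers. It had 3395, 913 and 1208 RPKM in fasted WT livers and 628, 1498 and 2199.8 RPKM in fasted FLD livers, and these overlapped. It had 1469, 657 and 721 RPKM in refed WT livers and 5594, 3716 and 3477 RPKM in refed FLD livers. The refed genotypes did not overlap and their means differed 4.49-fold, a log2 difference of 2.23 ± 0.56 (SE). Within FLD the refed values lay above the fasted values without overlap, by 1.71 ± 0.56. The fasted genotype difference of -0.28 ± 0.56 became 0.28 without WT Fasted replicate 1, which held the highest of the 6 fasted values.

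Ahcy (ENSMUSG00000027597.15, chr2:155059310-155074497, minus strand) was listed at the lowest level of the 8 genes in all groups but fasted FLD. Its values were 10.5, 5.70 and 3.69 RPKM in fasted WT, 51.9, 34.0 and 27.2 RPKM in fasted FLD, 3.10, 1.67 and 3.25 RPKM in refed WT and 14.2, 7.85 and 7.75 RPKM in refed FLD livers. FLD was above WT without overlap in both states, by 2.39 ± 0.36 (SE) fasted and 1.56 ± 0.36 refed on the log2 scale, and refed was below fasted without overlap in both genotypes. These levels are uncertain, because 66.4% of the 69-base windows of Ahcy also occur in other transcripts, 63.3% in Gm4737, a gene at chr16:46152985-46155077. Gm4737, looked at for this reason after the data were seen, was listed at 449, 220.0 and 314 RPKM in fasted WT, 284, 398 and 559.6 RPKM in fasted FLD, 165, 79.0 and 182 RPKM in refed WT and 530.3, 447 and 466 RPKM in refed FLD livers. Ahcy thus held 1.16% to 15.5% of the sum of the pair in a library. The genotype difference of Gm4737 was 0.34 ± 0.36 fasted and 1.84 ± 0.36 refed. Ahcy and Gm4737 were not compared with a test.

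**Figure D2:**
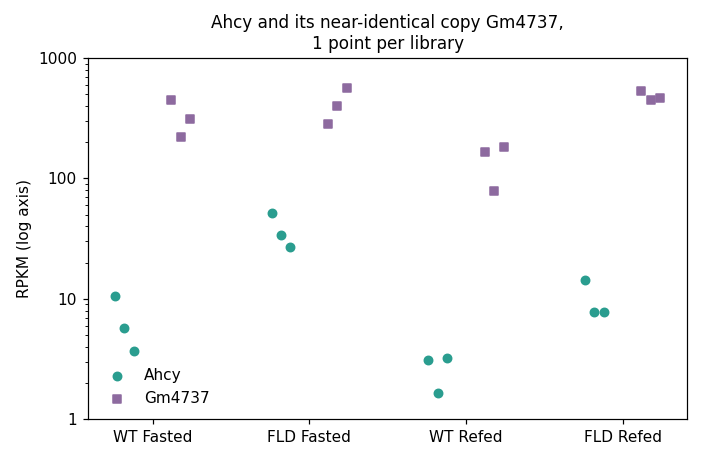
RPKM on a log axis of Ahcy (circles) and of Gm4737 (squares) in each of the 12 libraries. Of the 69-base windows of Ahcy, 63.3% also occur in Gm4737. Gm4737 sits at 79.0 to 559.6 RPKM and lies above Ahcy in every library.

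The folate enzymes Shmt1 and Aldh1l1 differed from each other in pattern. Shmt1 (ENSMUSG00000020534.14, chr11:60788104-60811718, minus strand) had 120.0, 89.4 and 92.0 RPKM in fasted WT and 42.3, 27.1 and 28.1 RPKM in fasted FLD livers, which did not overlap, and a 3.09-fold lower mean in FLD. In the refed state it had 90.2, 53.2 and 98.5 RPKM in WT and 75.3, 99.7 and 94.1 RPKM in FLD, and these overlapped. The log2 difference was -1.62 ± 0.26 (SE) fasted and 0.19 ± 0.26 refed. Aldh1l1 (ENSMUSG00000030088.15, chr6:90486427-90600203, plus strand) had 436, 158 and 199.7 RPKM in fasted WT and 327, 332 and 372 RPKM in fasted FLD livers, an overlap made by WT Fasted replicate 1 alone. Its refed values were 193, 172 and 219 RPKM in WT and 463, 284 and 327 RPKM in FLD, with no overlap. The log2 genotype difference was 0.52 ± 0.33 fasted, or 0.95 without that WT library, and 0.85 ± 0.33 refed.

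Counted over the 8 genes, the fasted genotypes did not overlap for 6 (FLD higher for Nnmt, Gnmt and Ahcy, lower for Bhmt, Bhmt2 and Shmt1), where 32.9% of 11507 genes did not overlap (those whose mean RPKM reached 0.5). The refed genotypes did not overlap for 7, all higher in FLD, against 33.9% of genes in either direction. Refed and fasted WT did not overlap for 3 (Gnmt, Bhmt and Ahcy, all lower when refed), against 18.1% of genes. Refed and fasted FLD did not overlap for 5 (Bhmt, Bhmt2, Mat1a and Shmt1 higher and Ahcy lower when refed), against 46.8% of genes. The genes were chosen on these same contrasts, so nothing is read from these counts, and the fasted and refed contrasts share their libraries with the feeding contrasts. Across all genes the median refeeding difference was 0.19 in WT and 0.25 in FLD on the log2 scale. When libraries were rescaled by their median ratio these medians became 0.02 and -0.03, and with that scaling the FLD refeeding differences of Nnmt and Aldh1l1 became -0.19 and -0.34, while no other member's direction turned in any of the 4 contrasts. Without WT Refed replicate 2 and FLD Fasted replicate 1, the marker-rich libraries, the Nnmt genotype difference was 3.63 fasted and 5.24 refed, that of Bhmt -1.04 and 0.73, and that of Shmt1 -1.81 and -0.08.

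**Figure D3:**
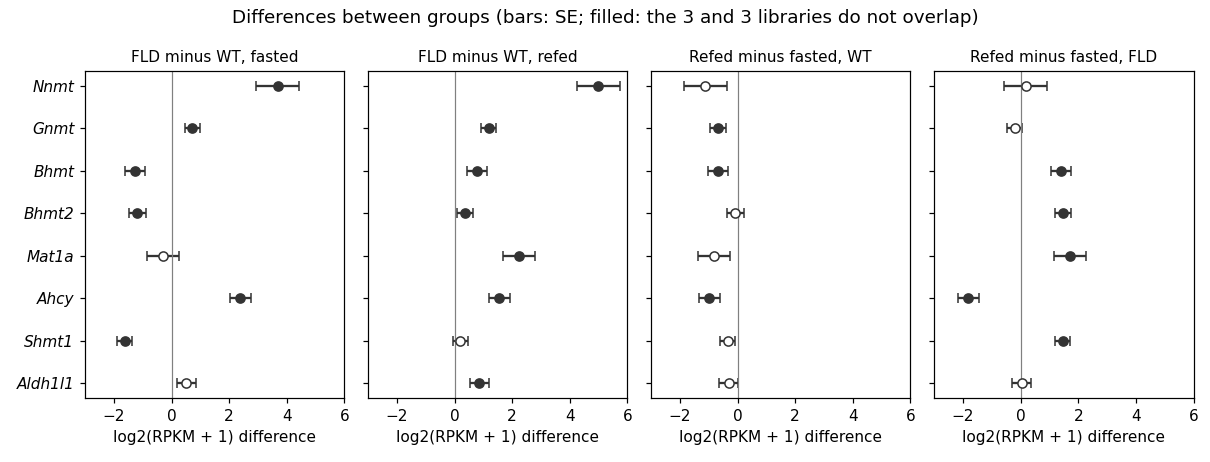
Differences in log2(RPKM + 1) with SE for the 8 genes in 4 contrasts, each between 3 and 3 libraries. Filled points mark genes whose 2 groups do not overlap: 6 for fasted genotypes, 7 for refed genotypes, 3 for refeeding in WT and 5 for refeeding in FLD.

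The other genes of the pathway were taken from 5 lists that hold 71 genes, of which 70 passed the filter and were tested with limma over all 11507 genes. The lists were chosen with earlier results of these data known. Their counts, medians and adjusted p therefore describe these libraries, and nothing is read from the counts against the share of all genes. In fasted livers 4 were higher and 21 lower in FLD, against 5.63% and 13.2% of all genes, and their median log2 difference was -0.55 against -0.14 over all genes. Of the 22 genes of nicotinamide and NAD metabolism 2 rose and 7 fell. Nampt, the rate-limiting enzyme of NAD salvage from nicotinamide, was at 25.3, 25.2 and 22.6 RPKM in WT and at 67.7, 124 and 110.2 RPKM in FLD, with no overlap, a log2 difference of 1.96 ± 0.26 (SE) and adjusted p = 0.000833. Acmsd, which diverts tryptophan breakdown from NAD synthesis, was at 18.7, 3.52 and 2.53 RPKM in WT and 35.5, 57.9 and 47.8 RPKM in FLD (2.79 ± 0.62, adjusted p = 0.0104). Aox3, an aldehyde oxidase that also acts on methylnicotinamide, was at 37.5, 30.2 and 40.5 RPKM in WT and at 15.8, 12.5 and 8.73 RPKM in FLD, a mean 2.92-fold lower (adjusted p = 0.0111). Without WT Fasted replicate 3 these latter 2 lost the call, with adjusted p = 0.0516 and 0.05002, and the count fell to 14 genes.

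Of the 13 methionine cycle and transsulfuration genes 2 rose and 1 fell in fasted FLD. Cth, which makes cysteine from cystathionine, had 492, 324 and 299 RPKM in WT and 2450.1, 1518 and 1772 RPKM in FLD. All FLD values were above all WT values, by 2.37 ± 0.26 on the log2 scale (SE, adjusted p = 0.000399). Mat2b, the regulatory partner of the other methionine adenosyltransferase, rose by 0.49 ± 0.15 (adjusted p = 0.0476), and Mtap, of methionine salvage, fell by 0.83 ± 0.20 (adjusted p = 0.0158). Mat2b lost its call in 16 of 20 alternative fits and Mtap in 3.

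Of the lists for choline oxidation, folate and other methyltransferases no gene rose in fasted FLD livers. Among 5 genes of choline oxidation to glycine 3 fell: Chdh by 1.40 ± 0.42 (SE, adjusted p = 0.0392), Sardh by 1.15 ± 0.28 (adjusted p = 0.0169) and Pipox by 1.07 ± 0.19 (adjusted p = 0.00311). These encode choline dehydrogenase and the enzymes that oxidize sarcosine, the product of GNMT. Among 20 genes of folate one-carbon metabolism and glycine cleavage 7 fell and none rose. Amt, the aminomethyltransferase of glycine cleavage, had 41.2, 36.9 and 36.2 RPKM in WT and 5.60, 7.24 and 10.5 RPKM in FLD, with no overlap and a log2 difference of -2.19 ± 0.27 (adjusted p = 0.000598). Gldc, the glycine decarboxylase, fell by 1.54 ± 0.41 (adjusted p = 0.0237), and Shmt2, the mitochondrial partner of Shmt1, by 1.53 ± 0.24 (adjusted p = 0.00191). Chdh lost the call in 12 of 20 alternative fits and Gldc in 5, among them those without WT Fasted replicate 1 and those without FLD Fasted replicate 1, where the adjusted p was highest, at 0.139 and 0.0869. Of 10 other small-molecule methyltransferases 3 fell, among them Mettl7b at -1.41 ± 0.36 (adjusted p = 0.0197) and Tpmt, which methylates thiopurines, at -1.23 ± 0.26 (adjusted p = 0.00805). Mettl7b lost the call in 7 of 20 alternative fits, median-ratio and trimmed-mean rescaling included, and Sardh in 2.

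In refed livers 4 of the 70 pathway genes were higher and 7 lower in FLD, against 2.6% and 4.07% of all genes, and the split became 4 and 4 when libraries were rescaled by their median ratio. Cth was at 262, 180.4 and 199.8 RPKM in WT and at 1897, 1520.3 and 1742 RPKM in FLD, again without overlap (3.01 ± 0.26, SE, adjusted p = 0.000419). Tdo2, the liver tryptophan dioxygenase, was at 991, 635 and 974 RPKM in WT and 2232, 2389.6 and 2519.8 RPKM in FLD (1.48 ± 0.25, adjusted p = 0.00813). Aox3 and Aox1 fell by 2.22 ± 0.34 (adjusted p = 0.00464) and 1.73 ± 0.30 (adjusted p = 0.00813). Of the other methyltransferases Mettl7b fell by 1.51 ± 0.36 (adjusted p = 0.0326) and Gamt, which makes creatine, by 1.297 ± 0.32 (adjusted p = 0.0383). No gene of choline oxidation was altered, with 3 of 5 at an unadjusted p under 0.05. Slc19a1, the reduced folate carrier, rose by 0.97 ± 0.26 (adjusted p = 0.0482). Nampt was at 24.4, 41.1 and 45.9 RPKM in WT and 43.9, 44.9 and 42.7 RPKM in FLD, which overlapped. Cth, Tdo2, Aox1 and Aox3 passed in all 20 alternative fits, and Slc19a1, Gamt and Mettl7b lost the call in 13, 12 and 10 of them. The count was 5 genes without FLD Refed replicate 1, 2 or 3, 6 without WT Refed replicate 1 or 3 and 7 without FLD Fasted replicate 2.

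**Figure D4:**
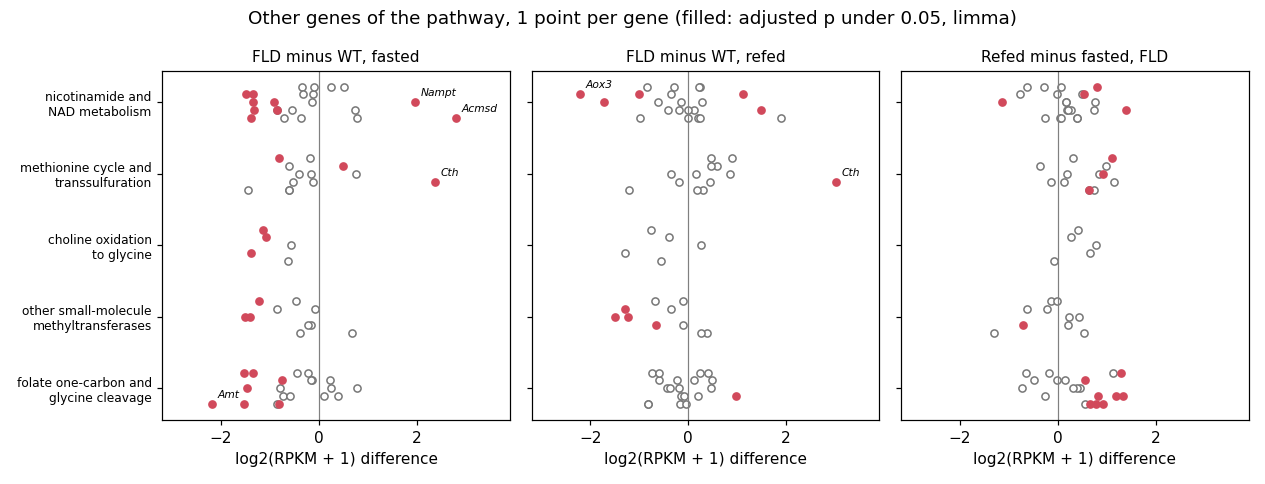
Differences in log2(RPKM + 1) of the 70 other pathway genes, 1 point per gene in 5 lists, for FLD minus WT when fasted and when refed and for refed minus fasted in FLD. Filled points passed adjusted p under 0.05: 25, 11 and 16 genes, with Cth at 2.37 and 3.01 in the genotype panels.

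Refeeding altered none of the 70 pathway genes in WT with limma (11 at an unadjusted p under 0.05), where 1.72% of all genes were altered. In FLD 14 were higher and 2 lower after refeeding, against 17.8% and 2.92% of all genes, and 5 and 3 after median-ratio rescaling. In the folate list 8 of 20 rose, led by Atic (1.33 ± 0.31, SE, adjusted p = 0.0133), Fpgs (1.29 ± 0.27, adjusted p = 0.00827) and Gart (1.195 ± 0.22, adjusted p = 0.00476), of which Atic and Gart act in purine synthesis and Fpgs keeps folate in the cell. In the methionine list Mtap (1.11 ± 0.20, adjusted p = 0.00428), Mtrr (0.93 ± 0.20, adjusted p = 0.00891) and Adk (0.64 ± 0.20, adjusted p = 0.0405) rose. Nampt fell by 1.14 ± 0.26 (adjusted p = 0.0112) and Mettl7a1 by 0.71 ± 0.17 (adjusted p = 0.0158), while Nmrk1 and Nmnat1, also of NAD synthesis, rose by 1.40 ± 0.35 (adjusted p = 0.0171) and 0.81 ± 0.25 (adjusted p = 0.0395). Adk and Nmnat1 each lost the call in 13 of 20 alternative fits, Nmrk1 in 4, rescaling included for all 3, Mettl7a1 in 4 and Atic in 2 (without FLD Fasted replicate 1 and without FLD Refed replicate 1), and the count was 6 to 10 genes without WT Fasted replicate 3, FLD Fasted replicate 1 or 2, WT Refed replicate 1 or 3 or any 1 refed FLD library. No pathway gene was altered in the interaction of genotype and feeding with limma (19 at an unadjusted p under 0.05), where 1.28% of all genes were. The interaction called 3 pathway genes, 2 higher and 1 lower, with either rescaling of the libraries, and 3 when only genes with a mean RPKM of 5 or more were tested.

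Exon inclusion was not used to choose the genes and was tested. Each event compares reads that include an exon with reads that skip it, and the inclusion level is the share of length-normalized counts that include it. Libraries are listed within a group in these tables without replicate numbers. In fasted livers 381 events of the 8 genes were tested and 49 were altered, 18 with higher and 31 with lower inclusion in FLD, against 3.26% and 7.54% of all 69644 events. The 49 events cover 44 distinct exon forms in 19 separate regions, because many differ by a few bases at an edge and share reads. Only 8 differed by 5 percentage points or more in mean inclusion, a limit set after the data were seen. Aldh1l1 had 17 altered events, Mat1a 16, Bhmt 11, Bhmt2 2, and Gnmt, Nnmt and Shmt1 1 each. With 1 library left out the count ranged from 32, without the third WT or the second FLD library listed, to 89 without the third FLD library.

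Among the altered fasted events, Aldh1l1 had the largest differences in percentage points, in 5 overlapping events that lie in no annotated exon of the gene. Unannotated here means outside the exons of the same gene, and exons of other genes were not checked. A coding exon here means an exon of a protein-coding transcript, and whether all of it is translated was not checked. Of the 69-base windows of Aldh1l1, 8.71% also occur in other transcripts. The event with the largest log2 ratio difference of the 5, a form of 207 bases at chr6:90553338-90553544, was included at 0.316%, 0.374% and 0.0826% in fasted WT and at 25.4%, 18.7% and 4.34% in fasted FLD livers (log2 ratio difference 5.99 ± 0.93, SE, adjusted p = 0.00258). Inclusion rested on 2 to 22 counts in WT and 239 to 723 counts in FLD. Each FLD value was above each WT value, with the third library listed nearest to WT. The annotated coding exon at chr6:90594483-90594648 was included at 99.9%, 99.9% and 99.7% in WT and 96.4%, 96.5% and 98.4% in FLD (-4.18 ± 0.77, adjusted p = 0.00591). Of the 17 Aldh1l1 events 14 had higher inclusion in FLD, and 9 of its 15 distinct forms overlap no annotated exon of the gene.

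Lower inclusion in FLD was seen in 10 of 11 altered events of Bhmt, 1 of 2 of Bhmt2 and 16 of 16 of Mat1a. Of their distinct forms 2 of 11, 1 of 2 and 2 of 13 were exact coding exons, and most others overlapped a coding exon in part. Log2 ratio differences of Bhmt reached -7.44. The Bhmt coding exon of 148 bases at chr13:93624814-93624961 was included at 99.98%, 99.996% and 99.996% in fasted WT and at 96.6%, 96.7% and 99.8% in fasted FLD livers (-7.34 ± 1.07, SE, adjusted p = 0.00194), with 1 to 8 skipping counts in WT and 46 to 360 in FLD. A second Bhmt coding exon, at chr13:93620082-93620310, was included at 99.9%, 99.7% and 99.9% in WT and 96.7%, 95.3% and 99.1% in FLD (-3.61 ± 0.84, adjusted p = 0.0180). This second exon lost the call in 4 of 9 alternative fits. The Bhmt2 coding exon at chr13:93663674-93663821, also of 148 bases, was included at 100% in all 3 WT libraries and at 97.5%, 96.0% and 99.9% in FLD (-5.29 ± 1.16, adjusted p = 0.0133). It had 0 skipping counts in WT and 1 to 25 in FLD, and lost the call in 4 of 9 alternative fits. An unannotated Bhmt2 stretch of 59 bases at chr13:93664275-93664333 was at 0% in all WT libraries and at 0.651%, 0.534% and 1.47% in FLD, on 4 to 29 inclusion counts (5.71 ± 0.76, adjusted p = 0.00133). Neither 148-base exon has a length that is a multiple of 3. All 16 Mat1a events had lower inclusion in FLD, and inclusion stayed at 97.6% or more in every library. In Gnmt an unannotated stretch of 67 bases at chr17:46727101-46727167 was included at 0.0345%, 0.0198% and 0.0139% in WT and at 0.207%, 0.172% and 0.187% in FLD (3.07 ± 0.72, adjusted p = 0.0181). The Gnmt stretch lost the call in 3 of 9 alternative fits. The Nnmt event, at chr9:48603354-48603561, had 1 skipping count in 1 of 6 libraries, so its ratio followed the number of inclusion counts (779 to 3905 in WT and 21820 to 25731 in FLD) and says nothing of inclusion. The Shmt1 event, at chr11:60794836-60794952, had 0 to 3 skipping counts in WT and 1 to 5 in FLD. Its inclusion counts were 2961 to 4273 in WT and 966 to 1437 in FLD, so its ratio also depended on their number. It lost the call in 5 of 9 alternative fits.

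**Figure D5:**
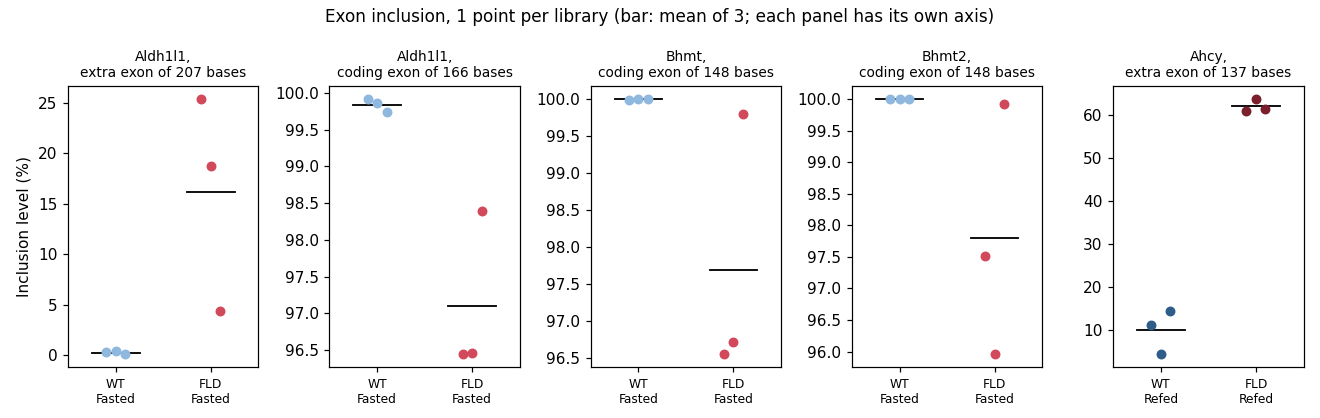
Inclusion levels in percent of 5 exons, 1 point per library with a bar at the mean of 3, on axes that differ between panels and do not start at 0. Fasted WT and FLD are shown for Aldh1l1, Bhmt and Bhmt2, and refed WT and FLD for Ahcy, whose extra exon was at 4.24% to 14.2% in WT and 61.0% to 63.8% in FLD. The Ahcy levels are uncertain because most of its sequence also occurs in other transcripts.

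In refed livers 3 of 307 events were altered, against 1.03% of all events. An unannotated Ahcy exon of 137 bases at chr2:155074145-155074281 was included at 11.1%, 4.24% and 14.2% in WT and at 61.0%, 63.8% and 61.5% in FLD (3.93 ± 0.66, SE, adjusted p = 0.0281), with 2 to 6 inclusion counts in WT and 130 to 274 in FLD. In fasted livers the same exon was at 41.5%, 18.8% and 22.9% in WT and 30.2%, 62.1% and 47.6% in FLD, which overlapped. Its skipping rested on 12 to 16 counts in refed WT and 27 to 58 in refed FLD. Because 66.4% of the 69-base windows of Ahcy also occur in other transcripts, these inclusion levels are uncertain. The part of shared sequence in them was not tested. The coding exon of Aldh1l1 at chr6:90557202-90557351 was at 100% in all WT and at 99.3%, 98.8% and 99.4% in FLD libraries (-4.18 ± 0.61, adjusted p = 0.0183), and the third event was a shorter form of it. No member event passed when any 1 refed library was left out.

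Fasted and refed livers were counted in separate exon tables, so refeeding was compared only for the events found in both, from raw counts. Refeeding altered none of 100 member events in WT with limma (1 at an unadjusted p under 0.05), where 0% of all 28447 events were altered. In FLD it altered 14 of 100, 6 with higher and 8 with lower inclusion, against 7.32% of events in either direction. The 14 events lie in 8 separate regions, and 5 of them are forms of Mat1a in 1 region. None differed by 5 percentage points or more in mean inclusion. The Bhmt exon of 148 bases was at 96.6%, 96.7% and 99.8% in fasted and 99.97%, 100% and 99.99% in refed FLD livers (7.59 ± 1.28, SE, adjusted p = 0.00421). The Aldh1l1 exon of 166 bases was at 96.4%, 96.5% and 98.4% in fasted and 99.6%, 99.6% and 99.5% in refed FLD livers (2.74 ± 0.70, adjusted p = 0.0301). The Aldh1l1 exon lost the call in 5 of 15 alternative fits, and the Bhmt exon in none. The 2 altered Ahcy events had 0 to 1 skipping counts per fasted and 1 to 2 per refed library, so their ratio followed the number of inclusion counts and says nothing of inclusion. The count was 4 to 7 without 1 of the first 2 fasted or last 2 refed FLD libraries listed.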

How the data were processed

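Liver RNA of 12 mice (4 groups of 3) was sequenced by the authors as 69-base paired reads from a stranded kit. Per the labels, HISAT2 2.0.5, HTSeq 0.6.0, DESeq2 1.20.0 and build GRCm38 were named in the processing notes. The authors deposited RPKM per gene and, for skipped exons, inclusion and skipping counts per library with lengths used for normalization. Their own inclusion differences, p-values and false discovery rates in the exon tables, and a table of enriched terms, were not used. Here log2(RPKM + 1) of 11507 genes (mean RPKM of at least 0.5) was fitted over the 4 groups with limma 3.58.1 (trend) in R 4.3.3, and the Benjamini-Hochberg adjusted p was taken over all genes, at 0.05. Exon events whose lowest library held 10 or more counts were fitted with limma as log2 length-normalized inclusion over skipping counts, 0.5 added. Named genes were the 8 members, Lpin1, up to 3 altered genes with the largest difference per list and contrast, and the 5 genes nearest Nnmt and Gnmt; named events were the altered ones or, for a member without any, the one with most counts. Shared windows and exon annotation came from GENCODE M21. The members and lists were chosen with earlier results of these data known. Both fits were tested on simulated data. No count behind the RPKM was used, so their depth is unknown here. Each replicate is 1 mouse, and p-values measure the spread between mice. A named result of the lists is not reported here.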

Additional observations from a re-analysis of the deposited data

Results flagged for a closer look

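Bhmt, Bhmt2 and Adk had opposite differences, without overlap of the groups, in the states or genotypes compared. For Bhmt and Bhmt2 the difference between the opposite effects was not tested. The refeeding difference of Bhmt in log2(RPKM + 1) was -0.68 in WT and 1.39 in FLD, and its FLD minus WT difference was -1.28 fasted and 0.80 refed. The FLD minus WT difference of Bhmt2 was -1.19 fasted and 0.37 refed. Adk, the adenosine kinase that removes a product of the AHCY reaction, had a FLD minus WT difference of -0.61 fasted and 0.30 refed. Its interaction of genotype and feeding was 0.91 ± 0.28 (SE) and did not pass with limma (adjusted p = 0.131). Bhmt and Bhmt2 were chosen with these values known. No test for a single outlying library was run in groups of 3.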

How the results depend on the processing

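No named gene result and no altered member exon event reversed in direction, and other tested results were not checked for this. Of 33 named gene results 16 passed under every alternative, as did 31 of 49 fasted, 4 of 14 FLD refeeding and 0 of 3 refed exon events. Altered pathway genes in FLD refeeding (16) became 8 with median-ratio and 8 with trimmed-mean rescaling, and 9 without WT Refed replicate 2 and FLD Fasted replicate 1, an alternative chosen after seeing the data. The fasted count (25) became 15 with only the 6 libraries compared, and the refed count (11) became 7 with no filter. The interaction count (0) became 1 with a pseudocount of 0.1 and 3 with a mean RPKM of at least 5, median-ratio or trimmed-mean rescaling. Leaving out 1 library gave 6 to 23 (FLD refeeding), 14 to 27 (fasted, lowest without WT Fasted replicate 3), 5 to 13 (refed), 0 to 1 (interaction) and 0 to 0 genes (WT refeeding). Altered member exon events became 79 fasted, 12 refed and 22 in FLD refeeding with 1 added to each count, and 8, 1 and 0 with at least 5 points of difference, a limit chosen after seeing the data. Leaving out 1 library gave 32 to 89 fasted, 0 to 0 refed, 4 to 18 FLD refeeding and 0 to 0 WT refeeding events. The cause of these shifts was not tested.

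Replicate numbers gave no clear pairing of the samples, and these values do not exclude one. The correlation of deviations over 18 same-numbered pairs ran from -0.474 to 0.743, with a median of 0.034 against -0.049 for other pairs. Of 12 libraries 6 were closest to their own number. With the replicate block the pathway counts were 0 (WT refeeding), 11 (FLD refeeding), 21 (fasted), 7 (refed) and 0 (interaction). Exon tables carry no replicate numbers, so no block was fitted there. Depth limits exons with few counts, such as that of Ahcy in refed WT.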
